A study of Mus musculus with 10 samples.

Results

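The collagen hydroxylation and folding enzymes described here are 9 genes, listed by name: the collagen prolyl 4-hydroxylase alpha subunits P4ha1, P4ha2 and P4ha3, the lysyl hydroxylases Plod1, Plod2 and Plod3, and the collagen chaperones Serpinh1, Crtap and Fkbp10. All 9 are among the 25239 gene symbols of the deposited count table, and all 9 passed the filter on low counts. RNA was sequenced from cells sorted out of the calvarial suture, the fibrous joint between skull bones, of mice at postnatal day 7. The labels name 5 libraries DDR2-plus, after the collagen receptor DDR2, and 5 libraries PSC, which they do not expand, and call all 10 calvarial stem cells. The genotype label is WT in both groups, whereas the protocol names Ctsk-Cre mice, in which Cre is driven by the gene of the protease cathepsin K, and gives 5 as their number without tying animals to libraries. The titles number the libraries of both groups alike, without saying whether same-numbered libraries share an animal. It is therefore not known which libraries share an animal, and p-values measure the spread between these libraries.

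Collagen chains are modified inside the endoplasmic reticulum before they wind into a triple helix. Prolyl 4-hydroxylase, a complex of an alpha subunit with protein disulfide isomerase (P4hb), makes the 4-hydroxyproline that keeps the helix stable at body temperature. Lysyl hydroxylases make hydroxylysine, which carries sugars and forms the stronger kind of cross-link. PLOD2 acts on the short telopeptides at the chain ends, and PLOD1 on the helix. HSP47, encoded by Serpinh1, binds the folded helix, CRTAP holds the prolyl 3-hydroxylase complex together, and FKBP65, encoded by Fkbp10, assists folding and telopeptide hydroxylation. Loss of several of these proteins causes brittle bone disease.

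The 3 prolyl 4-hydroxylase genes and Serpinh1 are shown by the 250 bases that precede their RefSeq starts (build GRCm38.p6, read 5′ to 3′ on the gene's strand), because the paralogs moved in 1 direction by different amounts and Serpinh1 is the most abundant member. Capitals mark the letters ACGTG, searched on both strands. They are a form of the core of the hypoxia response element, and its form GCGTG was neither marked nor counted. P4ha1 and P4ha2 are textbook targets of hypoxia-inducible factor. The windows lie at chr10:59323046-59323295 on the plus strand (P4ha1), chr11:54100674-54100923 on the plus strand (P4ha2), chr7:100285270-100285519 on the plus strand (P4ha3) and chr7:99353240-99353489 on the minus strand (Serpinh1).
P4ha1: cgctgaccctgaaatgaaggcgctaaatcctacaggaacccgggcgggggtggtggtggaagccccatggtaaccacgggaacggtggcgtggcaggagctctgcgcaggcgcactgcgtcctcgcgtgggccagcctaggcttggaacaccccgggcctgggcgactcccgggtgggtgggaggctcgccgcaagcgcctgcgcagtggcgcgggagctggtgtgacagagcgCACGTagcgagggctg
P4ha2: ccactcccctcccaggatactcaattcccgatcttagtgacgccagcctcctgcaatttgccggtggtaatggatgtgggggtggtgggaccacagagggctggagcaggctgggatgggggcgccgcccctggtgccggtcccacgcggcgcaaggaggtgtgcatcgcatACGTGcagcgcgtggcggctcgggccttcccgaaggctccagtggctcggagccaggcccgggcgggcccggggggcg
P4ha3: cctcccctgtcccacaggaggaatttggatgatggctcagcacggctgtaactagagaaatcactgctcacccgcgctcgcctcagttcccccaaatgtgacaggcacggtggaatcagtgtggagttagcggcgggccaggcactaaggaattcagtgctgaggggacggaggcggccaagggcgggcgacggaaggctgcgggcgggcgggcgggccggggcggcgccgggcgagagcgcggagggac
Serpinh1: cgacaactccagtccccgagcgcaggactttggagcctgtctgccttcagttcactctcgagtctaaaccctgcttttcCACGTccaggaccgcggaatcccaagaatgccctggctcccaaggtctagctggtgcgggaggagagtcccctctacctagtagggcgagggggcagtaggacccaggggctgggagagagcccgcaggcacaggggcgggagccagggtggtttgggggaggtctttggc
For P4ha2 the RefSeq start used here lies inside the GENCODE gene, whose annotated start at 54100095 is further upstream, so its window is not the one before that start. The motif begins 16 bases before the start in P4ha1, 78 in P4ha2 and 171 in Serpinh1, and these letters are not in the P4ha3 window. The table of promoters holds 7 of the 9 members, of which 4 have the motif in this window, P4ha1, P4ha2, Plod3 and Serpinh1. The Plod3 window overlaps an exon of Znhit1. Plod2 and Fkbp10 are not in that table, so their windows were not searched. Among all 32851 windows of the same length in that table, 16.6% have it. A match is a description of letters and not a binding site.

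Library totals lay between 43419129 and 62021992 counts. Values are CPM, each count divided by its library total and scaled up by a fixed factor, with TMM factors that correct for the make-up of each library. The correction matters because Col1a1 and Col1a2, the chains of type I collagen, made up 22.8% ± 0.832 of a PSC library and 5.97% ± 1.46 of a DDR2-plus library (SD, n = 5 each). Without it, scaled by library size alone, the log2 fold changes of the 15416 tested genes had a median of 0.31 in place of 0.04, so that small changes shifted upward in DDR2-plus. Ddr2 itself had means of 112 CPM for DDR2-plus and 152 CPM for PSC (edgeR adjusted p = 0.000165), so its mRNA was not higher in the group named for it.

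Of the 9 members, 7 fell in DDR2-plus, 1 rose and 1 did not pass the test, where edgeR called 39.1% of all tested genes, 19.0% lower and 20.1% higher. The members are well expressed, and among the 3078 genes with a mean of at least 50 CPM the test called 61.4%, 35.9% lower and 25.5% higher. The members' median log2 fold change was -0.30, beside 0.04 for all tested genes. The CPM ranges of the groups did not overlap for 8 members, which held for 30.1% of tested genes, 14.6% lower and 15.6% higher in DDR2-plus. Under library-size scaling 3 members were called lower (P4ha2, P4ha3 and Plod1) and 2 higher (Plod2 and Plod3), where that scaling called 45.1% of genes, 9.98% lower and 35.2% higher. The changes of P4ha2, P4ha3, Plod1 and Plod2 thus passed under both scalings, and those of P4ha1, Serpinh1, Crtap and Fkbp10 passed with TMM factors and not with library size.

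**Figure D1:**
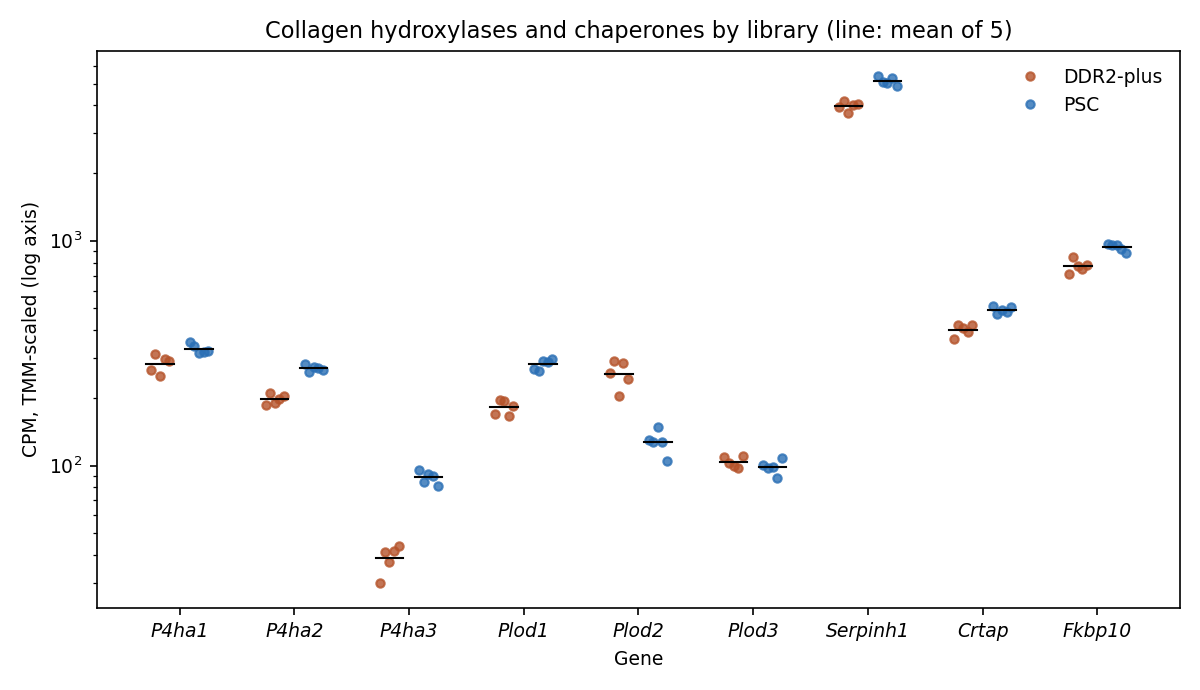
Level of each of the 9 genes in each library, in TMM-scaled CPM on a log axis, with 5 DDR2-plus and 5 PSC points per gene and a line at each mean. DDR2-plus lay below PSC without overlap for 7 genes, above it for Plod2, and overlapped with it for Plod3.

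Among the prolyl 4-hydroxylase alpha subunits, P4ha3 fell most. P4ha3 (GRCm38 chromosome 7, 100285520 to 100319699, plus strand), the least abundant of the 3 paralogs, was at 30.2, 41.4, 37.4, 41.7 and 44.0 CPM in DDR2-plus 1 to 5 and at 95.8, 84.2, 92.0, 89.5 and 81.5 CPM in PSC 1 to 5. Every DDR2-plus library lay below every PSC library, and DDR2-plus 1 was the lowest. The gene was 2.28-fold lower (log2 fold change -1.19 with an SE of 0.101, 5 libraries a group; edgeR adjusted p = 2.38e-06). P4ha2 (chromosome 11, 54100095 to 54131665, plus strand) had levels of 187, 210, 190, 199 and 204 CPM in DDR2-plus and 283, 261, 275, 272 and 266 CPM in PSC, again without overlap. It was 1.37-fold lower (log2 fold change -0.45, SE 0.0585; edgeR adjusted p = 5.90e-05).

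P4ha1 (chromosome 10, 59323296 to 59373304, plus strand), the most abundant alpha subunit, differed little. It had levels of 267, 313, 249, 299 and 292 CPM in DDR2-plus and 355, 341, 317, 320 and 323 CPM in PSC. The ranges did not overlap, although DDR2-plus 2 came close to PSC 3. The log2 fold change was -0.22 (SE 0.0728; edgeR adjusted p = 0.028). Without DDR2-plus 1, PSC 1 or PSC 2 the edgeR adjusted p was 0.0583, 0.0628 and 0.0561, and with library size alone the sign turned, to 0.05 (edgeR adjusted p = 0.616).

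Scaled by exon length, the alpha subunit genes took different shares of their family in the 2 groups. P4ha1 took 60.9% ± 1.37 in DDR2-plus and 52.9% ± 1.36 in PSC, P4ha2 28.1% ± 1.03 and 28.6% ± 0.749, and P4ha3 10.9% ± 1.05 and 18.5% ± 0.823 (SD, n = 5 each). The ranges of the P4ha1 share were 58.8% to 62.1% and 51.2% to 54.7%, and those of the P4ha3 share 9.22% to 11.9% and 17.7% to 19.5%. Shares within a family do not depend on library scaling. They are given without a test. P4hb, the other subunit of the enzyme, had means of 1597 ± 81.2 CPM and 1604 ± 53.9 CPM in DDR2-plus and PSC (edgeR adjusted p = 0.945) and passed as higher under library-size scaling alone (log2 fold change 0.26, edgeR adjusted p = 0.00175).

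The lysyl hydroxylases went in opposite directions. Plod2 (chromosome 9, 92542223 to 92608428, plus strand), the telopeptide enzyme, which shares 6.42% of its exonic bases with Gm38391 on the other strand, had levels of 258, 293, 203, 286 and 243 CPM in DDR2-plus and 130, 127, 149, 127 and 105 CPM in PSC. It was the only member that rose, 2.01-fold (log2 fold change 1.01 with an SE of 0.111, 5 libraries a group; edgeR adjusted p = 1.78e-05). The lowest DDR2-plus library, number 3, still lay above the highest PSC library, also number 3.

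Plod1 (chromosome 4, 147909753 to 147936767, minus strand), the helix enzyme, whose loss causes the kyphoscoliotic form of Ehlers-Danlos syndrome, was at 169, 196, 193, 166 and 184 CPM in DDR2-plus. In PSC it was at 269, 262, 292, 290 and 299 CPM. Every PSC library was higher than every DDR2-plus library. Plod1 was 1.56-fold lower in DDR2-plus (log2 fold change -0.64, SE 0.0699; edgeR adjusted p = 1.66e-05). Plod3 (chromosome 5, 136987019 to 136996648, plus strand), which also adds sugars to hydroxylysine, was at 97.4 to 110 CPM in DDR2-plus and 87.8 to 108 CPM in PSC, and the groups overlapped. It did not pass the test (log2 fold change 0.08, SE 0.0706; edgeR adjusted p = 0.433), but passed as higher under library-size scaling (log2 fold change 0.35, edgeR adjusted p = 0.00246). Of its exonic bases, 11.9% also belong to other genes, mainly Znhit1 on the other strand, and reads of these genes cannot be told apart without strand.

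The make-up of the lysyl hydroxylase family therefore differed between the groups. Per exon length, Plod2 took 48.7% ± 4.19 of the family in DDR2-plus and 27.1% ± 2.89 in PSC, and Plod1 27.7% ± 2.93 and 47.9% ± 2.13 (SD, n = 5 each). Plod2 ranged from 42.7% to 53.5% in DDR2-plus and from 22.2% to 29.9% in PSC. Plod2 had the highest mean of the 3 genes in DDR2-plus, and Plod1 had it in PSC. The Plod3 share was 23.7% ± 1.90 and 25.0% ± 1.90.

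**Figure D2:**
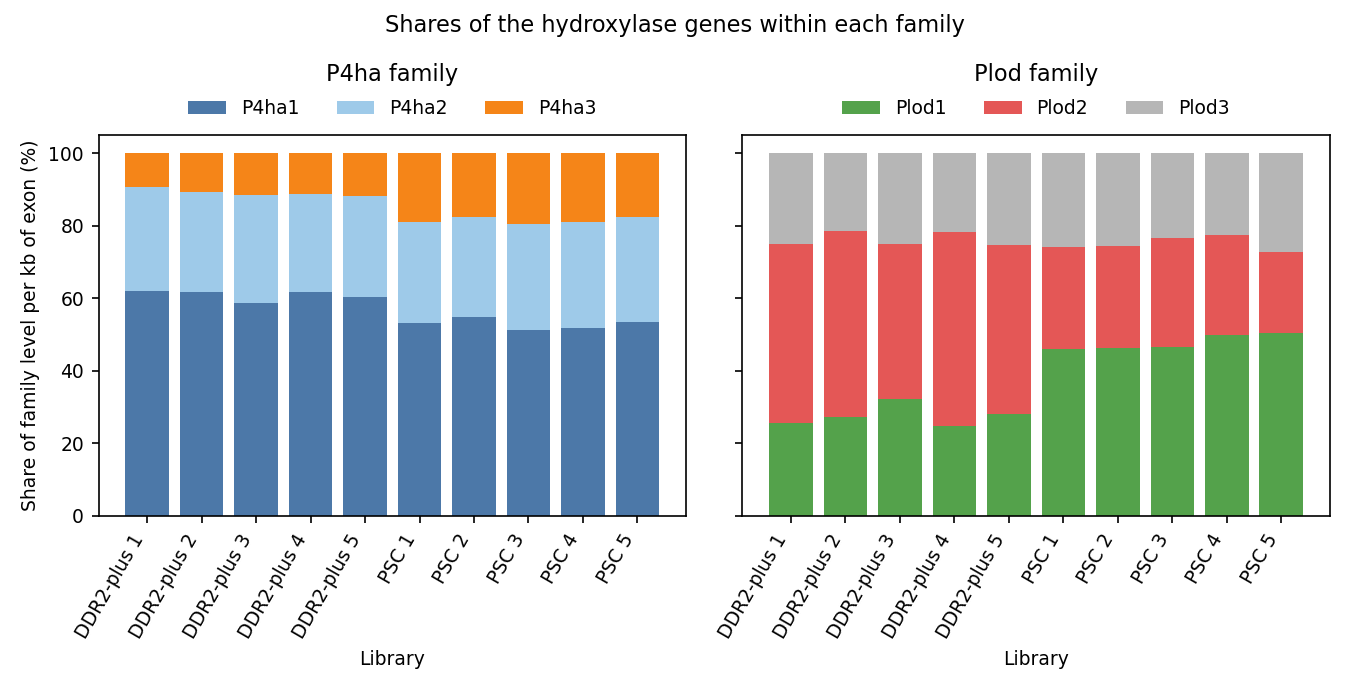
Share of each gene in the summed level per kilobase of exon of its family, in percent, for each of the 10 libraries: the alpha subunits of prolyl 4-hydroxylase at the left, the lysyl hydroxylases at the right. In every DDR2-plus library the Plod2 part, at 42.7% or more, was larger than in any PSC library, at 29.9% or less.

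The 3 chaperones fell together by small amounts. Serpinh1 (chromosome 7, 99345376 to 99353239, minus strand) was the most abundant member, at 3914, 4175, 3706, 3995 and 4044 CPM in DDR2-plus and at 5398, 5087, 5004, 5279 and 4882 CPM in PSC. The ranges did not overlap, and the gene was 1.29-fold lower in DDR2-plus (log2 fold change -0.37 with an SE of 0.0565, 5 libraries a group; edgeR adjusted p = 0.000218). Crtap (chromosome 9, 114375134 to 114390675, minus strand) was at 364, 422, 408, 393 and 424 CPM against 514, 473, 493, 481 and 508 CPM. It was 1.23-fold lower (log2 fold change -0.30, SE 0.0618; edgeR adjusted p = 0.00217).

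Fkbp10 (chromosome 11, 100415697 to 100424824, plus strand) shares 6.58% of its exonic bases with Nt5c3b on the other strand. It was at 711, 851, 774, 748 and 782 CPM in DDR2-plus. In PSC it was at 970, 958, 955, 914 and 880 CPM, above all DDR2-plus values. It was 1.21-fold lower in DDR2-plus (log2 fold change -0.27, SE 0.0633; edgeR adjusted p = 0.00407). With library size alone the 3 chaperones kept a negative sign but did not pass, at -0.10, -0.03 and -0.01 on the log2 scale for Serpinh1, Crtap and Fkbp10 (edgeR adjusted p of 0.132, 0.746 and 0.945). Relative to the median of all genes under that scaling, these changes were -0.41, -0.33 and -0.31.

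**Figure D3:**
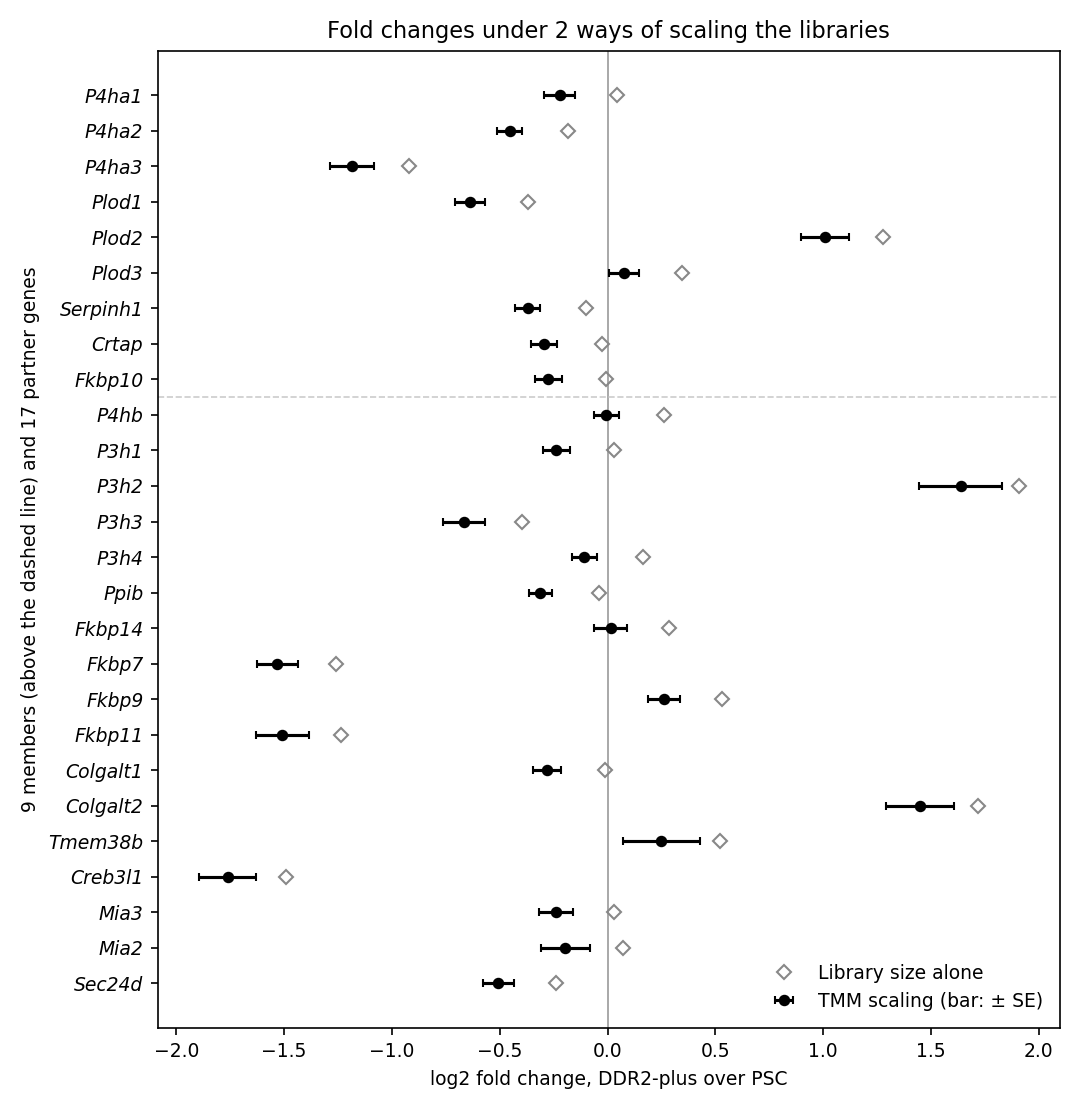
Log2 fold change of DDR2-plus over PSC for the 9 members, above the dashed line, and 17 partner genes, with TMM scaling (filled, bar ± SE) and with library size alone (open). All members except P4ha1 stay on their side of 0 under both scalings, Crtap and Fkbp10 close to 0 with library size alone. P4ha1 moves from -0.22 to 0.05.

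Per kilobase of exon, the order of the members in DDR2-plus was Serpinh1 (1624 ± 71.1 CPM per kb), Fkbp10 (263 ± 17.5), Crtap (227 ± 13.9), P4ha1 (69.0 ± 6.19), Plod2 (47.6 ± 6.68), P4ha2 (31.8 ± 1.55), Plod1 (26.8 ± 2.01), Plod3 (23.0 ± 1.25) and P4ha3 (12.4 ± 1.73; SD, n = 5). No neighbours in this order overlapped. In PSC the first 4 places were the same, Serpinh1 at 2100 ± 85.1 CPM per kb. P4ha2 (43.5 ± 1.36), Plod1 (41.8 ± 2.33), P4ha3 (28.3 ± 1.84), Plod2 (23.7 ± 2.90) and Plod3 (21.8 ± 1.62) followed. There the ranges of P4ha2 and Plod1, of P4ha3 and Plod2, and of Plod2 and Plod3 overlapped. Lengths are those of all annotated exons of a gene together, so levels between genes are approximate.

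The fibrillar collagen genes, whose chains these enzymes work on, each changed more than any member. The smallest change among them was 2.59-fold, of Col24a1, and the largest of a member 2.28-fold, of P4ha3. Of 11 fibrillar collagen genes, 7 fell and 4 rose, where 19.0% of all tested genes fell and 20.1% rose. Col1a1 was 4.74-fold, Col1a2 4.47-fold and Col3a1, the chain of type III collagen, 4.80-fold lower in DDR2-plus. Col2a1, the chain of cartilage collagen, was 6.09-fold higher (each of the 4 genes with an edgeR adjusted p at or below 1.30e-05). The 11 genes summed to 161482 ± 12871 CPM for DDR2-plus against 308010 ± 12731 CPM for PSC (SD, n = 5 each), a ratio of 0.524. Of the summed CPM of Col1a1, Col1a2 and Col2a1, Col2a1 was 60.1% ± 8.13 in DDR2-plus and 5.06% ± 1.54 in PSC.

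Set against these fibrillar clients, most members had higher ratios in DDR2-plus, but the summed clients themselves fell to 0.524 of PSC. A gene that did not change thus has a ratio above 1. P4hb, with a log2 fold change of -0.01, had a ratio of 1.99 by the measure used here. Per 1000 fibrillar collagen transcripts, all scaled by exon length, there were 89.8 ± 7.68 of Serpinh1 in DDR2-plus and 58.1 ± 3.02 in PSC, a ratio of 1.55. The ratio was 1.62 for Crtap, 1.65 for Fkbp10, 1.71 for P4ha1, 1.46 for P4ha2, 1.28 for Plod1, 2.10 for Plod3 and 4.04 for Plod2, at 2.64 ± 0.443 against 0.653 ± 0.061. P4ha3 was the exception, at 0.682 ± 0.0544 against 0.782 ± 0.0514, a ratio of 0.872 with overlapping ranges. With Col1a1 and Col1a2 alone as clients all 9 ratios were above 1, from 2.11 for P4ha3 to 9.96 for Plod2, and that of P4hb was 4.85. Of the members, only Plod2 and Plod3 (5.11 with these clients) lay above P4hb with either choice of clients. Collagens outside the fibrillar list were not counted as clients. Among them Col9a1, Col9a2 and Col9a3 were 5.59-fold, 5.12-fold and 5.48-fold higher in DDR2-plus, and counting them would lower the ratios per fibrillar collagen. The ratios thus depend on the clients chosen and are descriptions without a test.

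Of 17 partner genes of the same pathway, 9 fell, 3 rose and 5 did not pass, with a median log2 fold change of -0.24. Of all tested genes edgeR called 19.0% lower and 20.1% higher. Of those with a mean of at least 50 CPM, as most partners have, it called 35.9% lower and 25.5% higher. Under library-size scaling 5 partners were called lower and 7 higher, where 9.98% of all genes were called lower and 35.2% higher. Creb3l1, the transcription factor OASIS that drives collagen synthesis in bone, was 3.39-fold lower in DDR2-plus, at 115 ± 24.6 against 390 ± 36.8 CPM. The folding factor genes Fkbp7 and Fkbp11 were 2.89-fold lower, at 111 ± 17.1 against 319 ± 7.93 CPM, and 2.84-fold lower, at 71.5 ± 14.7 against 203 ± 12.9 CPM (SD, n = 5 each; each of the 3 genes with an edgeR adjusted p at or below 1.70e-06). Sec24d, a coat protein for export of procollagen, was 1.42-fold lower (edgeR adjusted p = 0.000132).

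Prolyl 3-hydroxylases, which modify single prolines, also went in both directions. P3h2 had levels of 108, 136, 72.9, 93.2 and 109 CPM in DDR2-plus and 34.9, 25.6, 31.1, 48.5 and 26.4 CPM in PSC, 3.11-fold higher (edgeR adjusted p = 2.89e-05). Of its exonic bases, 28.4% are shared with Gm4524 on the other strand. P3h3 was 1.59-fold lower, at 181 ± 19.8 against 286 ± 33.2 CPM (edgeR adjusted p = 0.000144). P3h1, the enzyme bound to CRTAP, was 1.18-fold lower (edgeR adjusted p = 0.0097) and Ppib, the cyclophilin of that complex, 1.24-fold lower (edgeR adjusted p = 0.000619), so that its 3 subunits, Crtap included, fell by similar amounts. Neither P3h1 nor Ppib passed under library-size scaling, where the P3h1 log2 fold change was 0.03. The Ppib exons share 25.0% of their bases with Snx22 on the other strand.

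Collagen galactosyltransferases, which add the first sugar to hydroxylysine, also went both ways. Colgalt2 was at 48.6 ± 4.87 against 17.8 ± 4.13 CPM, 2.73-fold higher in DDR2-plus (edgeR adjusted p = 1.45e-05). Colgalt1, the more abundant gene, was at 227 ± 12.5 against 276 ± 18.5 CPM, 1.21-fold lower (edgeR adjusted p = 0.00511), did not pass under library-size scaling (edgeR adjusted p = 0.907), and shares 11.4% of its exonic bases with Unc13a on the other strand. Fkbp9 was 1.20-fold higher (edgeR adjusted p = 0.0136), with values of 844 to 1033 CPM against 744 to 874 CPM. It no longer passed without DDR2-plus 1 and 5 (edgeR adjusted p = 0.0683). Mia3, the TANGO1 receptor that loads procollagen for export, had a log2 fold change of -0.24 (edgeR adjusted p = 0.0296). It did not pass without DDR2-plus 1, 2 or 3 or without PSC 3 (edgeR adjusted p of 0.0645, 0.0521, 0.0553 and 0.0714), its ranges overlapped, and its sign turned under library-size scaling (0.03). P3h4, Fkbp14, Tmem38b, Mia2 and P4hb did not pass (edgeR adjusted p between 0.158 and 0.945), but under library-size scaling all of these except Mia2 were called higher.

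Hydroxylases of this class need iron, 2-oxoglutarate and ascorbate. Of 10 genes for these supplies, 1 rose and 3 fell, a share near the 39.1% of all tested genes. Under library-size scaling 3 were called higher and 2 lower. Tfrc, the transferrin receptor, was 2.96-fold higher in DDR2-plus at 263 ± 40.9 against 89.0 ± 25.7 CPM (edgeR adjusted p = 4.48e-05). Slc39a13, the zinc transporter ZIP13 whose loss impairs collagen lysyl hydroxylation in a form of Ehlers-Danlos syndrome, was 1.75-fold lower at 84.8 ± 8.99 against 149 ± 11.4 CPM (edgeR adjusted p = 1.22e-05). Cybrd1, a ferric reductase, was 1.69-fold lower and Idh2, which makes 2-oxoglutarate in mitochondria, 1.38-fold lower (edgeR adjusted p of 0.00416 or less), the latter not passing under library-size scaling (edgeR adjusted p = 0.0623). The ascorbate transporter gene Slc23a2 averaged 104 ± 9.43 CPM for DDR2-plus against 91.9 ± 16.1 CPM for PSC (edgeR adjusted p = 0.231) and passed as higher under library-size scaling (log2 fold change 0.45, edgeR adjusted p = 0.00448).

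Of 18 target genes of hypoxia-inducible factor, 6 rose and 2 fell, with a median log2 fold change of 0.10, a share also near the 39.1% of all tested genes. Under library-size scaling 9 were called higher and 1 lower. Pfkfb3 and Hk2, enzymes of glucose use, were 4.17-fold and 2.70-fold higher and the mitophagy gene Bnip3 2.43-fold (edgeR adjusted p of 3.90e-05 or less). Bnip3 shares 22.2% of its exonic bases with Gm45507 on the other strand. Vegfa was at 85.6 ± 14.1 against 50.7 ± 11.9 CPM, whereas Egln1 and Adm were 1.74-fold and 2.08-fold lower (each of the 3 genes with an edgeR adjusted p at or below 0.00858). Egln1 did not pass under library-size scaling (edgeR adjusted p = 0.0582). Plod2, which rose, is itself a textbook target of this factor. So are P4ha1 and P4ha2, which fell with TMM factors, P4ha1 not under library-size scaling. The part of this factor in the changes of the members was not tested. Of 9 other oxygenases of the same enzyme class, which do not act on collagen helices, 6 rose and 1, Egln2, fell. The test called 20.1% of all tested genes higher and 19.0% lower. Under library-size scaling 7 of the 9 were called higher and 0 lower (Egln2 edgeR adjusted p = 0.991). That scaling called 35.2% of all genes higher and 9.98% lower. Phyh, the phytanoyl-CoA hydroxylase of peroxisomes, was 1.87-fold higher and Ogfod3, which shares 17.1% of its exonic bases with Hexdc on the other strand, 1.65-fold (edgeR adjusted p of 0.00144 or less). Hif1an was 1.57-fold higher (edgeR adjusted p = 0.0238), but did not pass without DDR2-plus 1, DDR2-plus 2 or PSC 3 (edgeR adjusted p of 0.0516, 0.0648 and 0.0589), nor without DDR2-plus 1 and 5 together (0.0818).

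Within the groups, library number 3 stood out in several of these genes. DDR2-plus 3 had the highest Col1a1 of its group, 38944 CPM, and the lowest Col2a1, 65192 CPM. It also had the lowest Plod2 and P3h2 of the 5 and the highest Fkbp7 (136 CPM), Fkbp11 (94.1 CPM) and Creb3l1 (152 CPM). PSC 3 had the lowest Col2a1 of its group, 7414 CPM, but the highest Plod2, 149 CPM. Serpinh1 was lowest in DDR2-plus 3, at 3706 CPM, although Col1a1 was highest there. With 5 libraries a group these are values and not a relation.

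**Figure D4:**
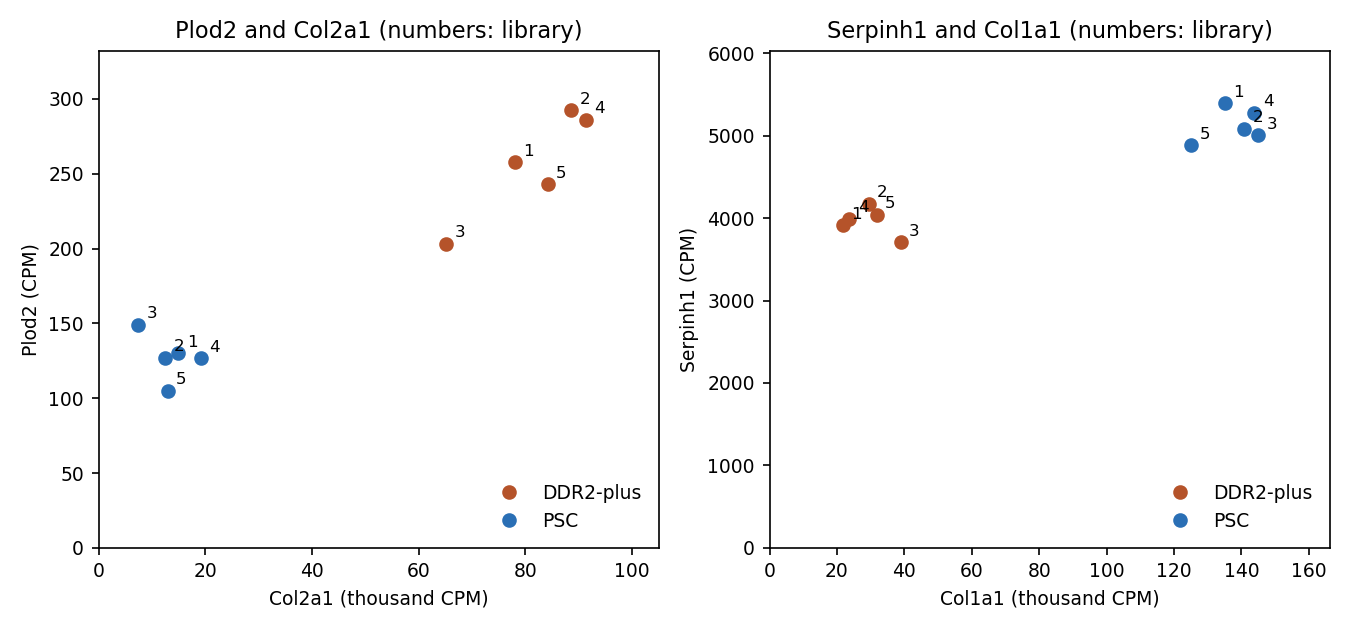
Plod2 against Col2a1 (left) and Serpinh1 against Col1a1 (right), both axes in units of CPM as labelled, with 1 point per library labelled by its number. Col1a1 differed 4.74-fold between the groups and Serpinh1 1.29-fold; PSC 3 combined the lowest Col2a1 with the highest Plod2 of its group.

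Some lists of cell type markers moved with the groups, whereas others hardly did or went both ways. Beside the counts that follow, edgeR called 20.1% of all tested genes higher and 19.0% lower. Of 12 cartilage markers 12 rose in DDR2-plus, with a summed level of 107042 to 147530 CPM against 14189 to 33383 CPM in PSC. Of 9 osteoblast markers 0 rose and 7 fell, with sums of 29157 to 51685 CPM and 157694 to 179351 CPM. Among 6 tendon markers 5 fell and 1, Fmod, rose (sums 3213 to 4158 and 4839 to 5698 CPM). Fmod, at 3547 ± 364 against 2507 ± 321 CPM, made up most of the DDR2-plus sum. The other 5 were lower in DDR2-plus, Kera 20.5-fold, Tnmd 19.1-fold, Thbs4 15.5-fold, Scx 10.9-fold and Mkx 2.37-fold. Of 7 Schwann and glial markers 7 rose (434 to 938 and 38.4 to 95.6 CPM), and of 8 neuron and pineal markers 6 rose (113 to 255 and 12.9 to 18.5 CPM). Tubb3 and Asmt did not pass (edgeR adjusted p of 0.0546 and 0.0588), and Asmt had the lower mean in DDR2-plus, 3.74 against 5.86 CPM. All 4 olfactory markers rose, with sums of 5.33 to 284 CPM in DDR2-plus, the highest in DDR2-plus 5, and of 0 to 0.778 CPM in PSC, but with limma-voom Gfy and Cyp2g1 did not pass (adjusted p of 0.0855 and 0.106), nor did the glial gene Aqp4 (0.0934). Endothelial markers (2 rose and 1 fell of 4) summed to 11.9 to 30.5 and 10.96 to 22.5 CPM. Pecam1, at 4.33 against 0.217 CPM, was 19.8-fold higher in DDR2-plus and Kdr 5.15-fold higher, whereas Cdh5 was 2.62-fold lower. Muscle markers (1 rose of 3 tested) summed to 17.3 to 43.2 and 9.20 to 27.6 CPM. Immune markers (1 rose of 4 tested, Lyz2, which passed in 12 of 20 alternatives) summed to 12.5 to 25.0 and 6.74 to 18.2 CPM, with Ptprc, the pan-leukocyte gene, at 0 in 2 DDR2-plus and 4 PSC libraries. Of the 2 erythroid markers tested 0 passed (sums 4.98 to 17.3 and 0.174 to 6.08 CPM). The part of these cells in the differences between enzymes was not tested, and in bulk libraries more cells of a type and more RNA per cell cannot be told apart. Without DDR2-plus 1, which had the highest neural and glial sums, and DDR2-plus 5, which had the highest olfactory sum, 1 member rose and 6 fell, where 29.8% of genes were called, 14.9% in each direction, and P4ha1 no longer passed (edgeR adjusted p = 0.104).

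Genes with the most similar profiles were found by the root mean square difference of centred log2 CPM over the 10 libraries, among 8749 genes. For Serpinh1 these were Lman1 (difference 0.0462), Zfp598 (0.0561) and P4ha2 (0.0568). P4ha2 lay closest to Sec11a (0.0411), Surf4 (0.0468) and Ppic (0.0506). For Crtap they were Eif4e2 (0.0277), Bcap31 (0.0301) and Arhgdia (0.0405), and for Fkbp10 Copg1 (0.041), App (0.0483) and Ilk (0.0489). Plod1 was nearest to Rps4l (0.0387), Cyb5r3 (0.0571) and Mmp2 (0.0598), and Plod2 to Fasn (0.0929), Pramef8 (0.103) and Stk26 (0.109). P4ha3 had its nearest genes farther away, Pdlim1 (0.109), Pdlim2 (0.114) and Rab29 (0.123). P4ha1 was nearest to Mcmbp (0.0596), Hdlbp (0.0627) and Tmed2 (0.0628), and Plod3 to Aamp (0.0556) and Smc3 (0.0572).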

How the data were processed

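The authors deposited 1 table of raw counts, a whole number for each gene symbol and library; its values show no normalization. Per the submitters' processing notes the build was mm10 and the tool DESeq. Aligner, counter and annotation: not given in the sources used here. Per the labels' protocols, cDNA was amplified by full-length template switching and cut with a transposase, which does not mark strand. Amplified reads are no independent molecules.

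Columns were matched to samples by name. Groups were compared in edgeR 4.0.16 (R 4.3.3) by its quasi-likelihood test, with TMM factors, filterByExpr, no covariate and Benjamini-Hochberg adjustment over all 15416 tested genes, with a threshold of 0.05. A standard error is the log2 fold change over the root of F. The fit was tested on simulated data. The alternatives used RLE factors, library size, upper-quartile factors, other filters, DESeq2 1.42.0 and limma-voom 3.58.1. Further alternatives took the library number as a block, left Col1a1, Col1a2 and Col3a1 out of the library sizes, or used fewer libraries. Exon lengths and positions are from GENCODE M21 (GRCm38), and promoters from RefSeq. Named genes are the 9 members, the 17 partners, up to 3 genes with the largest fold change per further list (further genes of these lists were named after their values were seen, as was Ddr2), and the 3 nearest profiles of each member, of which 1 is not reported here. The members and lists were chosen with earlier results of these data known. No 2 libraries of a group agreed within sampling noise (lowest chi-square per degree of freedom 39.2).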

Additional observations from a re-analysis of the deposited data

Results flagged for a closer look

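Of 52 sets of 5 values (9 members and 17 partners in 2 groups), 2 held a library far from the other 4, where chance flags about 1 in 20. Fkbp9 was at 844 CPM in DDR2-plus 3 and at 990 to 1033 CPM in the other DDR2-plus libraries. Mia3 was at 161 CPM in PSC 3 and at 132 to 137 CPM in the other PSC libraries. No such library was found among the values of the 9 members.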

How the results depend on the processing

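Library-size scaling, under which the median of all genes is 0.31 on the log2 scale, moved the most. It gave 5421 genes higher and 1538 lower in DDR2-plus, 2 members higher and 3 lower, and 7 partners higher and 5 lower. Log2 fold changes under it were 0.0454 for P4ha1, which turned sign, 0.35 for Plod3, which passed, and -0.101, -0.0266 and -0.0059 for Serpinh1, Crtap and Fkbp10, which did not pass. Among partners it turned the sign of P4hb (0.26), P3h1 (0.0310), P3h4 (0.16), Mia3 (0.0307) and Mia2 (0.0704). P4hb was also positive with RLE factors (0.00296) and DESeq2 (0.00295), and leaving out 1 library gave -0.0319 to 0.00888. Fkbp14 gave -0.0295 to 0.0535 when 1 library was left out, and -0.0258 without DDR2-plus 1 and 5, a setting chosen after seeing the data. P4ha1 gave -0.27 to -0.19 when 1 library was left out, and -0.21 without DDR2-plus 1 and 5. P4ha3 per fibrillar collagen turned from 0.872 to 2.11 with Col1a1 and Col1a2 as the only clients. P4ha2, P4ha3, Plod1 and Plod2 passed in the same direction in all 20 alternatives, with the highest adjusted p at 0.0148, 7.99e-05, 0.000786 and 0.000241.

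The library number as a replicate block changed no call of a member. It gave 3054 genes higher and 2688 lower, and Mia3 did not pass (-0.24, edgeR adjusted p = 0.0512). Deviations of same-numbered libraries correlated over genes by -0.00553 to 0.206, and those of unlike-numbered libraries by -0.148 to 0.155. The highest of all these values was that of DDR2-plus 3 and PSC 3. They do not settle whether the numbers pair libraries. The main test used no pairing, and the block is the alternative for a paired design. At these depths 1 count was worth 0.0146 to 0.0249 CPM, well below every member's level.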
